A study of Mus musculus with 3 samples.

Results

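The sites described here are the TRβ peaks of mouse C17.2 neural progenitor cells at which neither TRα nor the retinoid X receptor (RXR) had a peak. They were chosen by measured values, namely where peaks had been called: a TRβ peak on chromosomes 1 to 19 was taken if it shared no base with a TRα or RXR peak, after 4 blocks with runs of TRβ peaks had been left out. The rule took 7587 of the 10021 TRβ peaks, among 24389 peaks in all 3 lists together. Of the 9424 autosomal TRβ peaks outside the 4 blocks, the 7587 made up 80.5%. The other 1837 had a partner, with 1325 overlapping both a TRα and an RXR peak, 282 a TRα peak alone and 230 an RXR peak alone.

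TRα and TRβ are nuclear receptors for thyroid hormone, which in neural cells acts on the timing of proliferation and differentiation. They bind DNA also without hormone, mostly as heterodimers with RXR at direct repeats of a short half-site, and can bind as homodimers or monomers.

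TRβ was mapped in line C17.2b, which stably expressed TRβ with a protein G tag. TRα was mapped in line C17.2a, which stably expressed TRα with the same tag, and RXR was mapped in C17.2a with a pan-RXR antibody. Cells of both lines were untreated and were kept in serum-free medium before they were fixed. Both receptors were expressed from introduced constructs, and the labels do not say whether each line was 1 clone. There was 1 library for each of TRα, TRβ and RXR, so no difference between lists had a replicate check, and receptor, line and library cannot be told apart. No RXR library of C17.2b was analysed here, and peak lists hold no expression values by which the lines could be checked.

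The TRβ library held 16556350 unique tags of 19842907, or 83.4%, against 97.7% for TRα and 96.3% for RXR. Peaks were called on each library alone without a control. The modelled distance d between forward-strand and reverse-strand tags was 56 bp for TRβ, 139 bp for TRα and 174 bp for RXR. Called TRβ peaks held at least 6 tags, and called TRα or RXR peaks at least 10. Without a control, places that gather tags in every pull-down stay in the lists. Intervals below are 95% Wilson intervals. They cover counting error only and treat peaks as independent, although neighbouring peaks can share a source. All positions are on mm9. No sequence or gene of a site is given, since no mm9 genome or annotation was used here.

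Overlap chose these sites and goes with strength, so their strength is described without a test. Most were weak. The median site without a partner held 7 tags (quartiles 6 and 9), and 2527 sites, or 33.3%, held 6 tags, the lowest count in the list. TRβ peaks with a partner held a median of 14 tags (quartiles 9 and 20), and 4.84% of them held 6 tags. In all, 6328 of the sites without a partner, or 83.4%, held fewer than the 10 tags that were the lowest count in the TRα and RXR lists, against 25.1% of TRβ peaks with a partner.

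**Figure D1:**
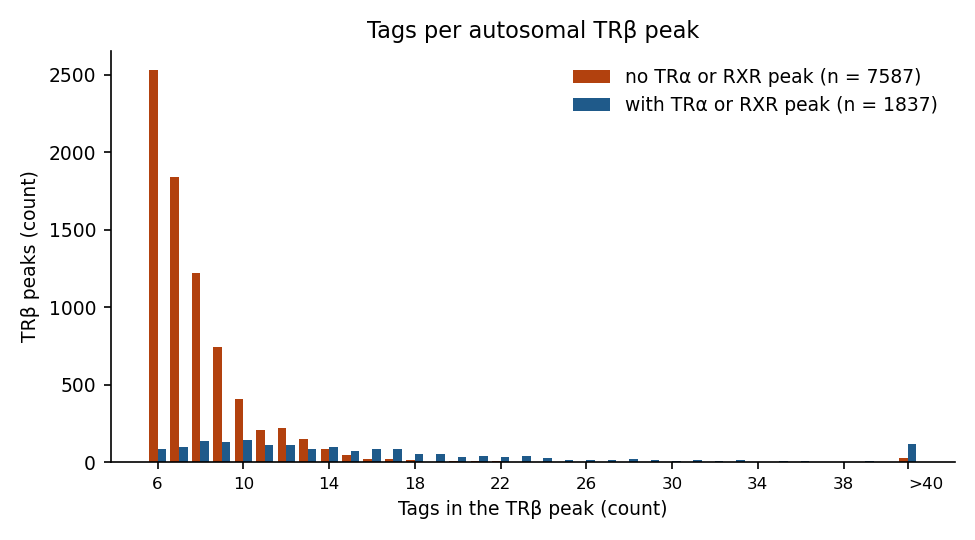
Number of autosomal TRβ peaks (vertical axis) by the count of tags in the peak (horizontal axis), with peaks of more than 40 tags in the last bar; orange bars are the 7587 peaks without a TRα or RXR peak and blue bars the 1837 with one. The orange bars are tallest at 6 tags, with 2527 peaks, and get lower with each further tag up to 11.

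The MACS score, a log10 p-value multiplied by minus 10, gave the same order. Sites without a partner had a median score of 43.9 (quartiles 41.5 and 48.5), just above the calling limit of 40, and 80.3% scored under 50. TRβ peaks with a partner had a median of 66.2 (quartiles 49.4 and 96.7), and 26.7% scored under 50. Among those with a partner, peaks that met both TRα and RXR had a median of 73.4, those with TRα alone 55.1 and those with RXR alone 55.3. Peaks with a single partner thus lay between the sites without a partner and those with both.

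Fold enrichment, the authors' ratio over a background of the same library, separated the classes less. Its median was 10.8 (quartiles 9.11 and 11.9) without a partner and 11.4 (9.40 and 14.6) with one. The upper tails differed more: the 95th percentile was 14.6 without a partner and 28.9 with one. Sites without a partner were also narrower, with a median width of 165 bp (quartiles 147 and 192) against 235 bp (171 and 305). A narrow peak has fewer bases with which to meet another list, so width is not independent of the rule.

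At equal tag counts the order of widths turned round. Among peaks of 8 tags, the 1218 sites without a partner had a median width of 177 bp, a median score of 45.2 and a median fold of 10.2. The 138 peaks of 8 tags with a partner had 162 bp, 48.2 and 11.7. Among peaks of 12 tags the medians were 265 bp, 49.9 and 8.82 for 221 sites without a partner, and 243 bp, 58.0 and 10.4 for 112 peaks with one. At the same number of tags, sites without a partner were thus the more spread out and the lower in score and fold. At 6 tags the fold did not separate them, with a median of 11.7 in both classes, while the widths were 145 and 131 bp.

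Because the sites were so many, they held most of the tags found in TRβ peaks despite their weakness. Together they held 63676 tags, which was 61.9% of the tags in autosomal TRβ peaks outside the blocks and 0.385% of the unique tags of the library. They covered 1.34 Mb at a mean of 47.5 tags per kb. The peaks with a partner held 39201 tags on 0.465 Mb, or 84.3 tags per kb.

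Outside the 4 blocks, the share of TRβ peaks without a partner was lower in each higher class of score. It was 95.3% (94.4 to 96.1) of 2572 peaks with a score from 40 to under 42. It was 77.3% (75.002 to 79.5) of 1332 peaks from 50 to under 60 and 53.1% (49.02 to 57.1) of 588 peaks from 60 to under 75. From 75 to under 100 it was 23.7% (20.03 to 27.9) of 451 peaks. Of 266 peaks from 100 to under 150, 13.2% (9.62 to 17.7) had no partner. Of the 118 peaks with a score of at least 200, 2 had none, or 1.69% (0.466 to 5.97), and 106 met both TRα and RXR. Over all 2837 peaks with a score of at least 50, 1491 had no partner, or 52.6%. These classes, and those by tags, width and fold below, do not count the 36 TRβ peaks of the blocks. All 36 had no partner, with a median score of 355.3 and a median of 69 tags, so the shares in strong classes hold only outside the blocks.

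By tag count the share was again high in weak peaks and low in strong ones. It was 96.6% (95.8 to 97.2) at 6 tags, 84.9% (82.4 to 87.1) at 9 tags and 66.2% (63.9 to 68.5) at 10 to 14 tags. At 15 to 24 tags it was 19.7% (16.9 to 22.9). At 25 to 49 tags 31 of 234 peaks had no partner, or 13.2% (9.49 to 18.2), and at 50 or more tags 18 of 101 had none, or 17.8% (11.6 to 26.4). The last intervals overlap. Leaving out peaks that start in the first 4 Mb of chromosome 11 gave 12 of 93, or 12.9% (7.54 to 21.2), for the class of 50 or more tags.

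**Figure D2:**
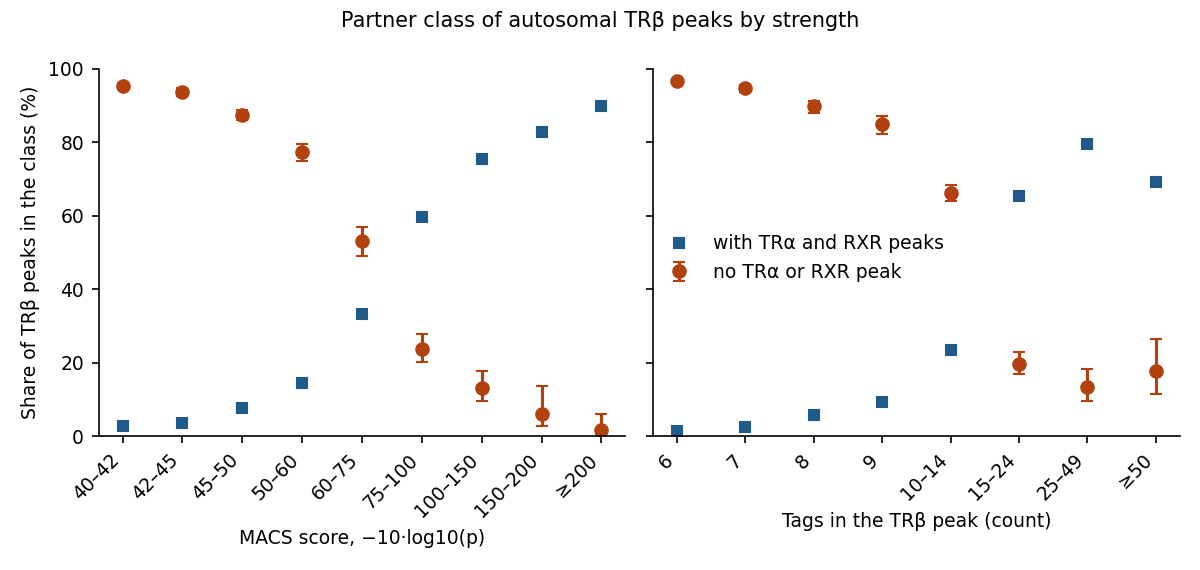
Share of autosomal TRβ peaks (vertical axis, %) that had no TRα or RXR peak (orange circles, with 95% Wilson intervals as bars) or both (blue squares), by class of MACS score (left) and by class of tag count (right). The orange share was 95.3% in the lowest score class and 1.69% at scores of at least 200, while by tags it was 96.6% at 6 tags and 17.8% at 50 or more. Peaks in the 4 blocks are left out.

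Width and fold sorted the TRβ peaks less evenly than score did. Of 4216 peaks from 150 to under 200 bp wide, 91.5% (90.6 to 92.3) had no partner, and of 521 peaks from 300 to under 400 bp, 30.1% (26.4 to 34.2) had none. At both ends of the range of widths the order broke. Of the 551 peaks at most 110 bp wide, 70.8% (66.8 to 74.4) had no partner, below the share at 150 to 200 bp. Of the 28 peaks at least 800 bp wide 13 had none, or 46.4% (29.5 to 64.2). By fold, 18 of 32 peaks under 5 had no partner, or 56.3% (39.3 to 71.8). The share was 83.3% (82.05 to 84.5) of 3489 peaks from 5 to under 10 and 83.9% (82.9 to 84.9) of 5141 peaks from 10 to under 15. Above this it was lower, at 34.9% (28.8 to 41.5) of 215 peaks from 20 to under 30, and 4 of the 84 peaks with a fold of at least 30 had no partner, or 4.76% (1.87 to 11.6).

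A partner was lacking for more TRβ peaks than TRα or RXR peaks. Of 6900 autosomal TRα peaks 3392, or 49.2%, met neither of the other lists, and of 6951 RXR peaks 3509, or 50.5%. As in the TRβ list, their median scores of 45.3 for TRα and 45.4 for RXR lay near the calling limit of 40. Their median tag counts of 16 and 17 and widths of 491 and 614 bp were larger than the 7 tags and 165 bp of TRβ, in libraries called with a larger d. Among TRβ peaks of at least 10 tags, 1259 of 2635 had no partner, or 47.8%. The 3 lists differ in depth, in d and in length. They also differ in the band width set for peak calling, 300 bp for RXR and 500 bp for TRα and TRβ. The part of each in these shares was not tested.

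Few sites lay at the border of the rule. In 7 sites the gap to the nearest TRα or RXR peak was at most 100 bases. Their scores ran from 40.9 to 49.8, with a median of 44.6, and their tags from 6 to 13. The nearest, on chromosome 16 from 76763688 to 76763940 with 12 tags and a score of 44.6, touched a TRα peak with 0 bases between and lay 18 bases from an RXR peak. On the other side of the rule, 139 TRβ peaks overlapped a partner by at most 100 bases. Of these, 124 lay wholly inside the partner, as narrow peaks do. The other 15 overlapped in part, with scores from 40.9 to 69.2, a median of 46.4 and tags from 6 to 11. The ranges of score and tags just inside and just outside the rule overlapped.

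Of the sites, 44.8% lay more than 100 kb from any TRα or RXR peak. No gap was worked out for random positions, so whether the sites lay farther than such positions was not tested. The median gap to the nearest peak of either list was 84.4 kb, with quartiles of 30.5 and 192 kb. Of the 7587 sites, 116 (1.53%, 1.28 to 1.83) had such a peak within 1 kb, 814 (10.7%, 10.1 to 11.4) within 10 kb and 4185 (55.2%, 54.0 to 56.3) within 100 kb. TRα and RXR peaks were about equally far, with medians of 133 and 135 kb. A TRα peak shared by all 3 lists lay within 100 kb of 843 sites, or 11.1% (10.4 to 11.8). TRβ peaks with a partner had a further TRα or RXR peak, beside those they overlapped, within 10 kb in 24.4% (22.5 to 26.5) of 1837 cases.

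TRα and RXR peaks without a partner lay nearer to the other lists. The median gap was 45.2 kb from a TRα peak to the nearest TRβ or RXR peak, and 48.8 kb from an RXR peak to the nearest TRα or TRβ peak. Within 100 kb the shares were 75.4% (73.9 to 76.8) and 73.4% (72.0 to 74.9), both above the 55.2% of TRβ. The lists searched differ in length: TRα and RXR peaks were set against the long TRβ list, and TRβ peaks against the shorter TRα and RXR lists. No correction for this was made.

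**Figure D3:**
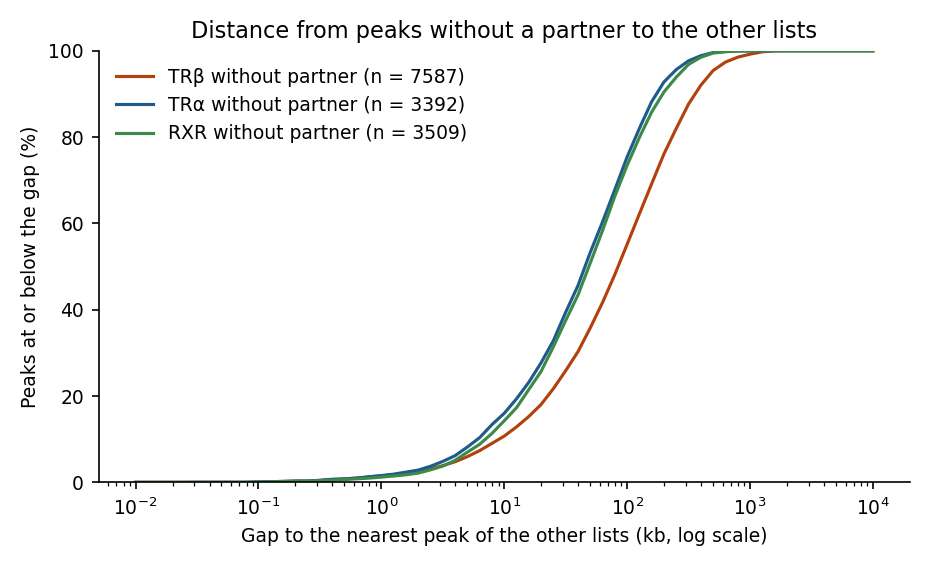
Cumulative share of peaks without a partner (vertical axis, %) by the gap to the nearest peak of the other 2 lists (horizontal axis, kb on a log scale), for TRβ in orange, TRα in blue and RXR in green. The TRβ curve lies to the right of the others beyond 10 kb and reaches 55.2% at 100 kb, where TRα stands at 75.4% and RXR at 73.4%.

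Sites near another list were somewhat stronger. The 116 sites within 1 kb of a TRα or RXR peak had a median score of 46.9 and 67.2% scored under 50. The 3402 sites more than 100 kb away had a median of 43.6 and 82.5% scored under 50. Crowding moved with this difference: 24.1% of the nearer sites lay in 1 Mb bins with at least 15 TRβ peaks, against 0.118% of the farther ones, and the part of crowding in it was not tested.

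Sites without a partner were spread over all autosomes. Chromosome 1 held the most, 672, and chromosome 19 the fewest, 209. The median score on a chromosome ranged from 42.5 to 44.6 and the median tag count from 6 to 8. The share of TRβ peaks without a partner ranged from 73.7% (69.5 to 77.5) on chromosome 9 to 85.8% (81.6 to 89.1) on chromosome 13, with 74.1% on chromosomes 11 and 19. On chromosome 9, 1 bin of 3 to 4 Mb held 34 of the peaks with a partner, and without bins of at least 15 TRβ peaks its share was 79.0%. The share on chromosome 11 without such bins was 74.3%. Set against the TRα list, chromosome 8 held the most sites, 1.47 for each TRα peak, and chromosome 11 the fewest, 0.815.

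**Figure D4:**
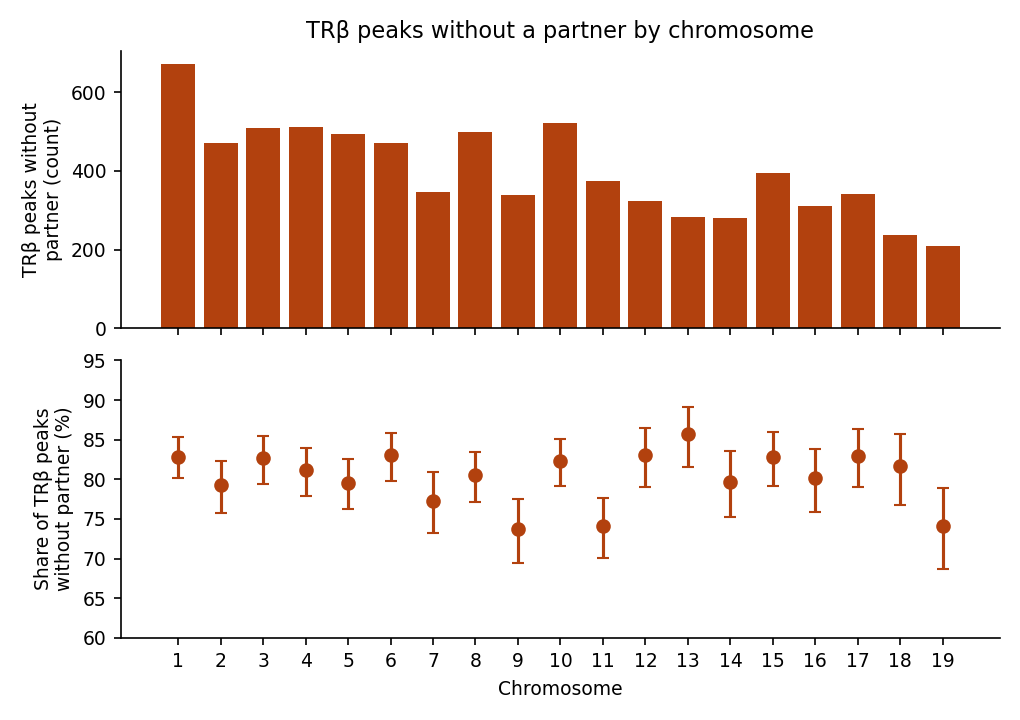
Number of TRβ peaks without a TRα or RXR peak on each autosome (upper panel, count) and their share of the TRβ peaks of that chromosome (lower panel, %, with 95% Wilson intervals; the axis starts at 60%). Counts run from 209 on chromosome 19 to 672 on chromosome 1, and shares from 73.7% on chromosome 9 to 85.8% on chromosome 13.

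Within chromosomes the sites were mostly solitary. They occupied 2266 bins of 1 Mb with a median of 3 sites per bin, and 15 bins held 10 or more. The median gap from a site to its nearest fellow was 108 kb. Of the 7587 sites 618, or 8.15% (7.55 to 8.78), had another within 10 kb, and 114 (1.503%, 1.25 to 1.80) within 1 kb. When sites with gaps of at most 10 kb were joined, 6969 stood alone, 232 pairs formed and 33 groups of 3 or more held 154 sites. Peaks of the TRβ list with a partner had a fellow within 10 kb more often, in 17.2% (15.5 to 18.996) of cases. Over longer distances the order was the other way, with a fellow within 100 kb for 47.7% (46.6 to 48.9) of sites without a partner and 38.8% (36.6 to 41.01) of peaks with one, whose median gap was 199.8 kb. Fellows were peaks of the same class, and the classes differ in size, with 7587 and 1837 peaks. A larger class has nearer fellows by its number alone, and no correction for class size was made. Bins with at least 15 TRβ peaks held 5.66% of the peaks with a partner and 1.88% of the sites without one. The part of this crowding in the shares within 10 kb was not tested.

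The bin with the most sites was chromosome 8 from 19 to 20 Mb, with 52. It held 75 TRβ peaks in all, beside 17 TRα and 14 RXR peaks. Its sites had a median of 9 tags, a median width of 122 bp and a median score of 58.2, and 5 of them scored at least 100. The longest group of sites, 22 peaks with 415 tags, lay in this bin, from 19917580 to 19977829. Across the 8 autosomal bins with at least 15 TRβ peaks, the median score of the 143 sites was 54.9, and that of all other sites was 43.8. These bins held 1.88% of the sites and 5.66% of the TRβ peaks with a partner. After chromosome 8, the bins with the most sites were chromosome 1 from 85 to 86 Mb with 24, and chromosome 5 from 15 to 16 Mb with 18 and from 14 to 15 Mb with 16. Each of these 3 also held TRα and RXR peaks, 12 and 5 on chromosome 1, and 15 and 11 and then 11 and 7 on chromosome 5. By contrast, chromosome 1 from 100 to 101 Mb held 10 sites with a median score of 50.1 and no TRα, RXR or other TRβ peak.

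Outside the 4 blocks left out, strong sites without a partner were rare. Of 466 TRβ peaks there with a score of at least 100, 42 had no partner, or 9.01%, and 424 had one. The blocks themselves held 36 TRβ peaks, none with a partner, and 28 of them scored at least 100. The 42 were of unlike shape. Of these, 18 were at most 110 bp wide and held 8 to 32 tags, with a median fold of 25.5. Another 5 were at least 800 bp wide and held 66 to 327 tags at folds from 3.71 to 9.40. The other 19 were of widths between these, with 11 to 173 tags and a median fold of 17.01.

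Narrow peaks made up 42.9% (29.1 to 57.8) of the 42 and 18.6% (15.2 to 22.6) of the 424 strong peaks with a partner. Widths between 111 and 799 bp, in contrast, made up 45.2% and 79.0%. Outside the bins with at least 15 TRβ peaks, the narrow share was 38.7% of 31 strong sites and 18.2% of 385 strong peaks with a partner. Median widths were 124 and 296 bp. Both the limits of width and the limit of score were set with the values known, and width is tied to the rule, so this is a description. Strong sites also lay near other lists more often than sites in general, with 17 of 42 (40.5%, 27.0 to 55.5) within 10 kb of a TRα or RXR peak, and 11 of the 42 lay in the bins with at least 15 TRβ peaks.

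**Figure D5:**
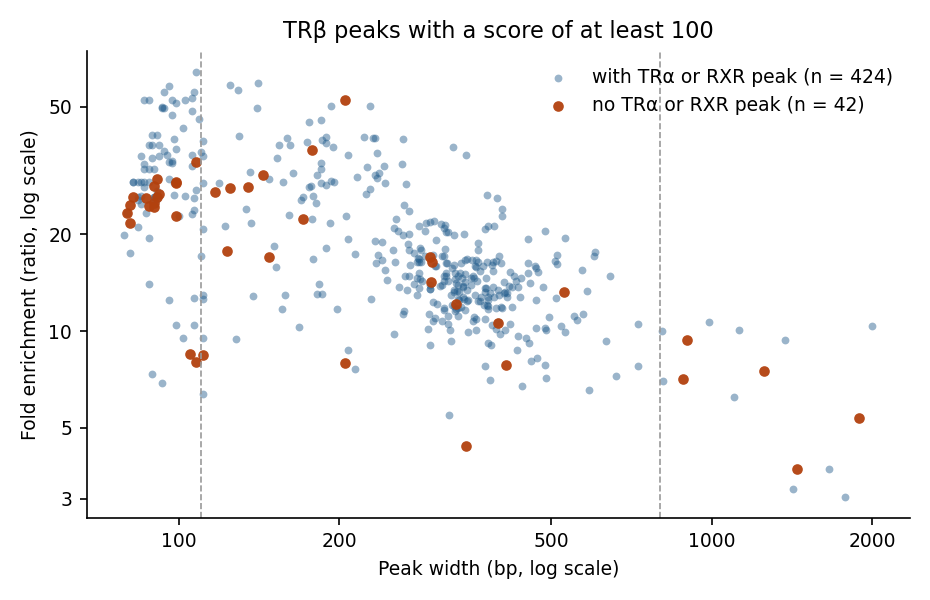
Fold enrichment (vertical axis, ratio on a log scale) against peak width (horizontal axis, bp on a log scale) for autosomal TRβ peaks with a score of at least 100, with 42 peaks without a TRα or RXR peak in orange and 424 with one in blue; dashed lines mark the limits of narrow and broad peaks. Of the orange points 18 lie left of the lines, 19 between them and 5 to the right, and of the blue points 79, 335 and 10. Peaks in the 4 blocks are left out.

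The 10 sites with the highest score show these shapes. The strongest lay on chromosome 8 from 28504067 to 28504964, with 93 tags over 898 bp, a score of 267.4 and a fold of 9.40. It ranked 136 in the whole TRβ list, and the nearest TRα peak was 18.1 kb away. The sixth lay close by, on chromosome 8 from 28514024 to 28514905, with 66 tags over 882 bp and a score of 177.9. With a peak from 28516908 to 28517319, which held 34 tags at a score of 125.5, they made up a group of 3 sites within 13.3 kb, and the nearest RXR peak to the first was 335 kb away.

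The sites ranked 2 and 4 were also at least 800 bp wide. Chromosome 14 from 66769898 to 66771152 held 95 tags over 1255 bp, at a score of 201.8 and a fold of 7.50, with the nearest TRα peak 412 kb and the nearest RXR peak 469 kb away. Chromosome 11 from 3097954 to 3099402 held 327 tags over 1449 bp at a score of 192.6, but its fold of 3.71 was the lowest of the 10.

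The site on chromosome 12 from 116610402 to 116610606 was of another kind. It held 21 tags over 205 bp at a score of 193.9, and its fold of 52.4 was the highest of all sites without a partner. The nearest TRα and RXR peaks were 675 and 423 kb away. On chromosome 5 from 77380510 to 77380840, 31 tags over 331 bp gave a score of 167.6 and a fold of 12.2, 412 kb from TRα. On chromosome 17 from 20537144 to 20537266, 22 tags over 123 bp gave a score of 139.2 and a fold of 17.7, 675 kb from RXR and 865 kb from TRα. All 3 lay well beyond the median gap of 84.4 kb.

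The remaining 3 of the 10 were no wider than 110 bp. Chromosome 6 from 97307755 to 97307842 held 17 tags over 88 bp at a score of 184.9 and a fold of 24.5. Chromosome 6 from 11135657 to 11135747 held 12 tags over 91 bp at a score of 138.5 and a fold of 29.8. Chromosome 5 from 15036485 to 15036592 held 15 tags over 108 bp at a score of 144.5 and a fold of 33.5, only 0.665 kb from an RXR peak and in a bin with 31 TRβ peaks. The 5 sites with the highest fold among those scoring at least 100 added chromosome 7 from 6176676 to 6176853, with 17 tags and a fold of 36.6, and chromosome 18 from 82397002 to 82397145, with 14 tags and a fold of 30.7.

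Sites with many tags had low folds and a wide range of scores. The 18 sites with at least 50 tags scored from 42.7 to 267.4, with 11 under 100, and had a median score of 77.3, a median fold of 4.42 and a median width of 1097 bp. The 83 TRβ peaks with a partner and at least 50 tags had a median score of 319.3, a median fold of 12.8 and a median width of 380 bp. Of the 18, 6 lay in the first 4 Mb of chromosome 11 and held 2509 tags, or 3.94% of all tags in sites without a partner. The one with the most tags, on chromosome 11 from 3031343 to 3035925, held 852 tags over 4583 bp at a fold of 2.78 and a score of 73.6. These sites of chromosome 11, apart from the fourth-ranked site above, were picked out after their values were seen. Whether they gather tags in every pull-down was not tested, as no control library was analysed here.

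At the other end of the score, the 2 lowest sites, at 40.01, lay on chromosome 10 from 115385087 to 115385341 and on chromosome 15 from 30322186 to 30322440, each with 11 tags over 255 bp. The next, at 40.02, lay on chromosome 1 from 10819254 to 10819422, with 7 tags over 169 bp. The median site, at 7 tags, stood at 0.423 tags per 1000000 unique tags of its library. A TRα or RXR peak at the lowest count called stood at 0.505 or 0.624 on that scale. Tags outside peaks are not listed, so TRα or RXR tags below the calling limit at these sites are unknown here, and the lack of a peak does not show the absence of TRα or RXR.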

How the data were processed

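Binding was measured by chromatin affinity purification of tagged TRα and TRβ and by immunoprecipitation of RXR, each followed by sequencing. CASAVA 1.7, Bowtie 0.12.7 and build mm9 are named in the submitters' processing notes. Per the file headers, the authors called peaks with MACS on each library without a control at a p-value limit of 0.0001. Those headers name no MACS version. The deposited tag counts are whole and not normalized. The deposited score is a log10 p-value multiplied by minus 10. The fold is a ratio that the authors deposited.

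RXR starts were raised by 1 bp, and sharing at least 1 bp counted as overlap. A gap is the number of bases between 2 peaks. Python 3.11.15, numpy 2.4.6, pandas 2.3.3, scipy 1.17.1 and matplotlib 3.10.9 were used, and overlap classes were tested on simulated data with known classes. Named sites are the 10 with the highest score, the 5 with the highest fold among scores of at least 100, and the 1 Mb bin with most sites. Other named sites were picked after their values were seen. Sites, limits and classes were chosen with earlier results of these data known. Planned work on motifs, base composition, start sites and gene lists was not run, because no mm9 genome or annotation was used here.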

Additional observations from a re-analysis of the deposited data

Results flagged for a closer look

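TRβ peaks without a partner also appeared in data that the rule does not cover, above the 3 counts that a count of 0 allows. On chromosome X there were 198 among 425 TRβ peaks, or 46.6% (41.9 to 51.3), with a median score of 49.1, and 21 of them scored at least 100. On chromosome Y there were 40 among 133, or 30.1% (22.9 to 38.3), with a median score of 72.7 and a median of 21 tags. On the mitochondrial sequence, where the count was not above 3, all 3 TRβ peaks had no partner, with a median score of 1300.7 and a median of 4388 tags. All 36 TRβ peaks in the 4 blocks left out had no partner, with a median score of 355.3, and 28 of them scored at least 100. The autosomal sites of the report, at 80.5% of TRβ peaks and a median score of 43.9, made up a larger share and had a lower median score than those of X and of Y.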

How the results depend on the processing

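For 5 results, 8 settings gave 35 alternative values. Of these, 21 stayed within 1.5 times the first count or within the 95% interval of the first share or median, and 14 did not. With TRβ peaks of at least 50 in score, 1491 sites remained, the share was 52.6%, the median score 55.6, the median tag count 9 and the share within 10 kb of a TRα or RXR peak 16.5%. With TRβ peaks of at least 10 tags, a limit chosen after seeing the data, these were 1259, 47.8%, 51.2, 12 and 18.6%. Both settings drop weak peaks by construction. With a reciprocal overlap of 50%, which narrow peaks rarely meet, the share was 96.1% and the median score 44.8. With partner peaks of at least 50 in score the share was 82.8%. Without bins of at least 15 TRβ peaks the share within 10 kb was 9.42%. Those bins held 143 sites, of which 28 lay within 1 kb of a TRα or RXR peak and 85 at 1 to 10 kb. Why sites of those bins lay nearer was not tested. Peaks of fewer than 6 tags were not called, which limits what can be seen. Settings for motifs and start sites were not run. No paired analysis was possible because TRα, TRβ and RXR had 1 library each.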

Other observations

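The sites without a partner took 363 distinct fold values, some of them shared by many sites. The most frequent fold was 11.65, at 737 sites. From the headers, 0.343 tags are expected in a window of d over the genome, and 4 tags divided by this expectation give 11.65. Whole tags over the same expectation, matched within 0.006, gave the fold of 1404 sites (18.5%) and of 7.29% of the TRβ peaks with a partner, with 316 sites at the level of 5 tags and 234 at that of 3 tags.

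The summit of many sites lay about 1 value of d from an edge. The distance from the summit to the nearer edge had a median of 54 bp (quartiles 49 and 71), and it was between 50 and 60 bp in 40.2% of the sites (39.1 to 41.3). In TRβ peaks with a partner the median was 85 bp, and 21.1% (19.3 to 23.0) lay in that range. Peak width limits this distance, and median widths were 165 bp without a partner and 235 bp with one. The classes were not matched for width here. The d of the TRβ library was 56 bp.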
